A study of Mus musculus with 5 samples.

Results

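The enzymes of glycolysis and gluconeogenesis examined here were Pcx, Pck1, Fbp1 and G6pc of gluconeogenesis, Pklr, the liver and red cell pyruvate kinase, and Hk2, Aldoa and Pkm, the glycolytic isoenzymes of fetal and many other tissues. They are 8 of the 22714 genes listed in any of 5 tables of Ago HITS-CLIP interactions, and their rows were found by gene symbol. Ago HITS-CLIP crosslinks Argonaute proteins to the RNA they hold, recovers them with antibodies and sequences both the miRNAs and the mRNA fragments bound with them. The livers were those of untreated C57BL/6 mice, given as C57BL/6J in the methods. There were 3 embryonic stages, e12.5, e15.5 and e18.5, and those after birth were postnatal day 7, written P7, and adult, 6 to 8 weeks old. Each stage has 1 table, called a library here, and where 5 values follow each other they run in order of age. Ago2 antibodies were used at every stage and an Ago1 antibody was added at P7 and in adult liver, so that the antibody and the time after birth cannot be told apart.

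The methods name 2 biological replicates, but the labels give 1 sample per stage, so no test between stages was possible. The study also names a replicate library for e18.5, and whether it is 1 of the 2 lists described next is not stated. Each embryonic table holds 2 lists of clusters that the labels do not describe, and these were added up but were not treated as replicates. A cluster is a stretch of overlapping reads with at least 1 listed seed match to a miRNA, and its reads are the highest read number listed for it. In order of age the summed cluster reads were 44867326, 16519549, 13008703, 16499162 and 24885228, and levels are given in RPM, the reads of a gene out of 1000000 summed cluster reads of its library. Intervals of levels and shares are 95% Wilson intervals, those of ratios are exact conditional binomial intervals, and both treat the read numbers as counts and cover counting error only.

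Glycolysis splits glucose to pyruvate, and gluconeogenesis rebuilds glucose from pyruvate, lactate and amino acids through the same reversible steps and a few enzymes of its own. Fetal liver receives glucose across the placenta and houses the blood-forming cells, and hepatocytes turn on gluconeogenesis around birth, when the milk-fed pup must make glucose itself. Several glycolytic steps change isoenzyme as the liver matures, among them pyruvate kinase, which goes from the M-type to the L-type.

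The miRNAs whose sites are described below were chosen because they are known from hepatocytes or blood-forming cells, were abundant, or led a cluster. Their mature sequences, from RefSeq (GRCm38.p6), are shown with the seed, bases 2 to 8, in capitals, because the seed decides which sites were listed. miR-122-5p, the hepatocyte miRNA, is named only.
let-7c-5p: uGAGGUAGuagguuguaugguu
miR-16-5p: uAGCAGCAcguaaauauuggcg
miR-30a-5p: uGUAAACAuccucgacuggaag
miR-142a-3p: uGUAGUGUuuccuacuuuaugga
miR-144-3p: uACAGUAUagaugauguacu
miR-194-5p: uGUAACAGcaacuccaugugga
miR-451a: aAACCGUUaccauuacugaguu

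No seed is shared among them. The target fragments that carry most of the results are given 5′ to 3′ as listed by the authors, with the bases that pair with the seed, and an A opposite the first miRNA base where the site type has one, in capitals. Positions are on mm10 (GRCm38), counted from 1, and leave out the base opposite the first miRNA base, while those of the 7mer-A1 site include the unpaired base before its capitals. The bases of GRCm38 at all 38 sites examined were those of the listed fragments.
G6pc 3′UTR, miR-122-5p 6mer, chr11:101377604-101377609, plus strand: cttctctccaaaggtCACTCCg
Aldoa 3′UTR, miR-122-5p 8mer, chr7:126795384-126795390, minus strand: aggctgctccatcaACACTCCA
Pcx CDS, miR-122-5p 7mer-A1, chr19:4617989-4617995, plus strand: ggtgaatggccctacCACTCCA
Pkm 3′UTR, miR-122-5p 8mer, chr9:59679282-59679288, plus strand: ttctgtcactgcagACACTCCA
Pcx CDS, let-7c-5p 6mer, chr19:4617718-4617723, plus strand: cagaagttgctacatTACCTCg
Pcx 3′UTR, let-7c-5p 7mer-m8, chr19:4621596-4621602, plus strand: gtggcttagggcttCTACCTCt
Pck1 CDS, miR-30a-5p 7mer-m8, chr2:173157051-173157057, plus strand: actagcgatgggggTGTTTACt
Pck1 CDS, miR-142a-3p 6mer, chr2:173155282-173155287, plus strand: ggatatggtgggaactCACTACt
Fbp1 CDS, miR-16-5p 6mer, chr13:62887940-62887945, minus strand: gggggagttgacccaGCTGCTg
Pklr CDS, miR-16-5p 6mer, chr3:89144860-89144865, plus strand: cgctaccgacctcggGCTGCTg
Hk2 CDS, miR-16-5p 6mer, chr6:82736646-82736651, minus strand: gctgagccatgaacaGCTGCTg
Aldoa 3′UTR, miR-16-5p 7mer-m8, chr7:126795317-126795323, minus strand: tttcccatcactctTGCTGCTg

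As a whole, the 8 genes took 155, 131, 532, 750 and 499 RPM in order of age. When scaled to the reads of clusters in a 3′UTR, CDS or 5′UTR, called mRNA clusters below, they took 667, 440, 1771, 3667 and 3708, so that the lower level in adult liver than at P7 was seen on the first scale and not on the second. They held 101, 49, 90, 161 and 153 distinct clusters in these libraries. The e12.5 library listed 7 of the 8, that of e15.5 listed 6, and all 8 were listed from e18.5 on. Of all genes listed in any library, 83.9%, 62.9%, 63.1%, 73.4% and 61.5% were listed in these libraries, and 40% in all 5. Ago clusters do not separate the amount of an mRNA from how much of it Ago held, and in whole liver fewer cells of a type and less RNA per cell cannot be told apart.

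Markers of several cell types moved over the same stages. The 8 hepatocyte markers, of which 7 were listed in every library and Tf in none, summed to 670, 2128, 5826, 6971 and 9423 RPM with age. Alb rose at each stage and had 6248 of these RPM in adult liver, while the other 6 were each lower in at least 1 later library than in the one before it, as was Ttr with 884 RPM at P7 against 382 in adult liver. The 10 erythroid markers, of which 7 were listed in adult liver and 8 in each other library, with Hbb-b1 and Epb42 in none, summed to 66422, 89893, 96338, 34550 and 1632. The α-globin genes Hba-a1 and Hba-a2 had the same or nearly the same read numbers in clusters at separate loci, and clusters of Hbb-bt and Hbb-bs also shared some read numbers, so that these sums may hold reads more than once. With 1 gene of each pair they were 34111, 46740, 48727, 17443 and 810. The summed level of the 7 leukocyte markers ranged from 59.1 in adult liver, where Mpo and Elane were not listed, to 371 at e18.5, that of the 5 endothelial markers from 30.9 at e12.5 to 236 at P7, that of the 6 mesenchymal markers from 65.5 in adult liver to 244 at P7, while the 4 cholangiocyte markers had from 0 reads, with all 4 not listed, at e15.5 to 260 reads at e18.5. Their part in the results was not tested.

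The e12.5 and adult libraries both listed 7 of the 8 genes, each with at least 20 reads in the pair of libraries together. At a threshold of 2-fold, 2 of the 7 were higher in adult liver, Pck1 and Fbp1, beside 18.7% of the 12338 genes so measured. Each had 10 reads at e12.5, all in the second list, so that with the first list alone neither could be measured, and the Fbp1 reads were intronic, so that with clusters in a 3′UTR, CDS or 5′UTR alone Pck1 was the 1 left. 3 of the 7 were lower, Pklr, Hk2 and Pkm, beside 52.1% of all genes. Pcx and Aldoa stayed within 2-fold. G6pc was listed in adult liver and not at e12.5, as were 10.9% of the genes listed in adult liver. It was likewise listed at e18.5 and not at e12.5, as were 8.8% of the genes listed at e18.5. The median log2 ratio was -0.24 over the 7 and -1.11 over all genes. Clusters in a 3′UTR, CDS or 5′UTR took 23.3% of the e12.5 reads and 13.5% of the adult reads, and scaling to them moved the median of all genes to -0.32. On that scale 3 of the 7 were higher, Pcx being added, beside 28% of all genes, and the same number were lower, beside 36.7%. Between e12.5 and e18.5, 4 of the 7 were higher, Pcx, Pck1, Fbp1 and Aldoa, beside 30.1% of all genes, and 1, Pklr, was lower, beside 26.2%. Aldoa had 15.6 and 21.5 RPM in the lists of e12.5 and 69.6 and 12.2 in those of e18.5, so its call depended on the list.

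**Figure D1:**
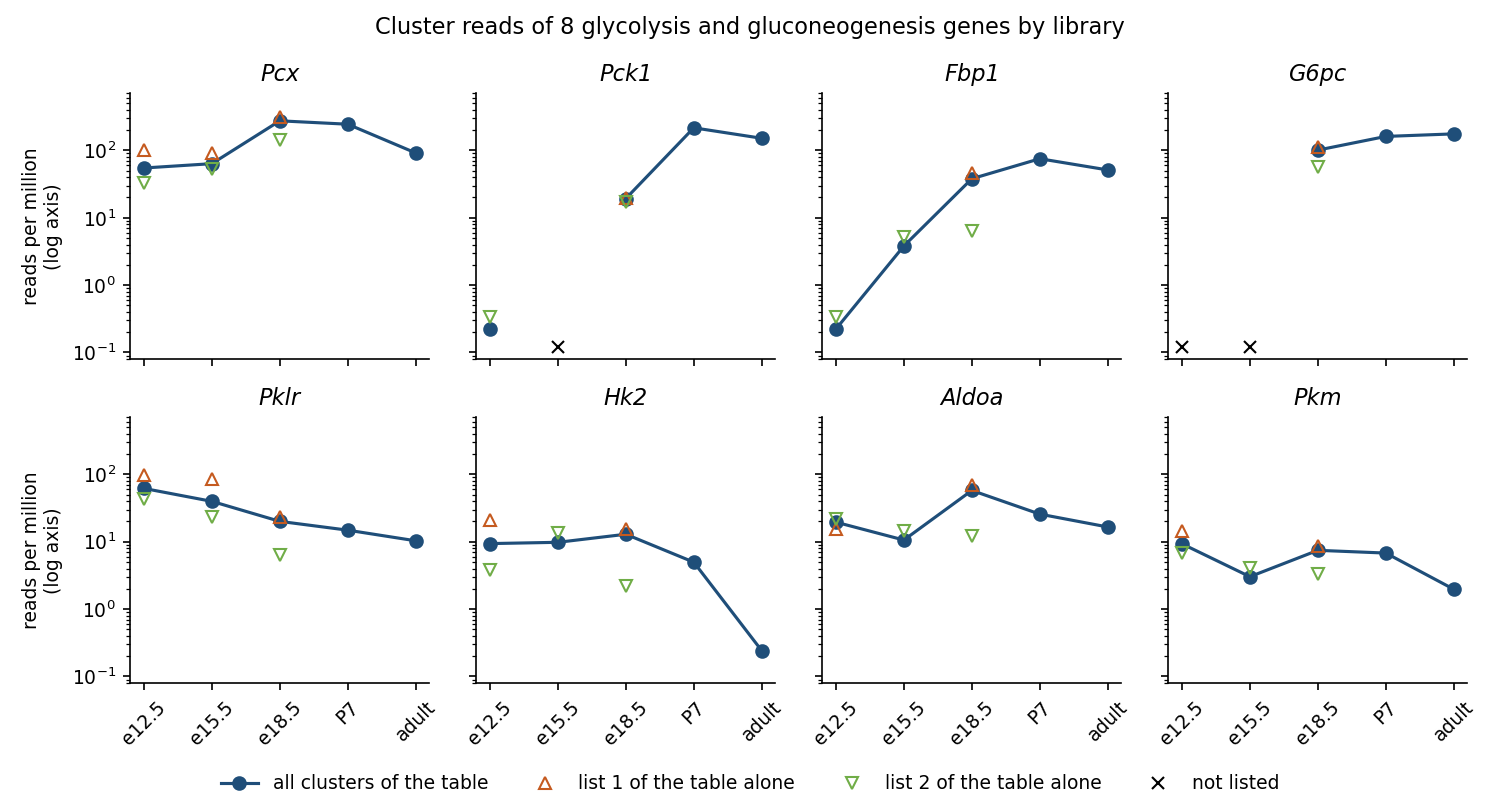
Level of each gene (RPM, log axis) in the 5 libraries. Filled points are the whole table and triangles are each list of an embryonic table on its own. Crosses mark libraries in which the gene was not listed. Pck1 and Fbp1 were at 0.223 RPM and G6pc was not listed at e12.5, and the 3 were at 51.3 to 176 in adult liver, where Hk2 was at 0.241.

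Pcx encodes pyruvate carboxylase, which makes oxaloacetate from pyruvate in the first step of gluconeogenesis and also refills the citric acid cycle. Its level was 54.8, 63.6, 275, 245 and 91.7 RPM in order of age. It was thus the member with the most reads at e15.5, e18.5 and P7, and its intervals in the 5 libraries did not overlap. From e15.5 to e18.5 the log2 ratio was 2.11 (2.01 to 2.21), and 29% of all genes were at least 2-fold higher in that step. The lists of a table differed, with 99.9 and 32.6 RPM at e12.5 and 309 and 145 at e18.5. Adult liver gave a log2 ratio to e12.5 of 0.74 (0.66 to 0.82), with the first e12.5 list alone -0.12 and with the second alone 1.49, so that its direction and its place at the 2-fold threshold depended on the list.

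Pcx had the most clusters of the 8 in every library, 36, 23, 40, 51 and 50, and most lay in the coding sequence, 26, 15, 36, 44 and 36. When overlapping clusters of all libraries were merged into stretches, Pcx gave 89, and 8 of these were present in all 5 libraries. One of the 8, in exon 12 (chr19:4617988-4618048), had 48, 57, 89, 113 and 255 reads, and it alone of the 8 had more reads at each later stage. Those in exons 4 and 13, for example, had 335, 128, 204, 33 and 40 and 322, 30, 314, 192 and 67. The cluster with most reads at e12.5 had 276 reads in exon 4 (chr19:4602286-4602320), and that of adult liver had 280 reads in exon 16 (chr19:4619905-4619933). The stretch around the latter was not listed at e12.5 and held 39, 1011, 514 and 298 reads later.

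Pck1 encodes the cytosolic phosphoenolpyruvate carboxykinase, the classical control point of gluconeogenesis. At e12.5 it had 0.223 RPM, from 1 cluster of 10 reads. It was not listed at e15.5, which was so of 30.2% of the genes listed at e12.5. From e18.5 on it had 19.3, 217 and 151 RPM. It was therefore near the lower limit of the tables before e18.5 and highest after birth. P7 stood above e18.5 by a log2 ratio of 3.49 (3.30 to 3.68), while 20.2% of genes were at least 2-fold higher at P7. It was the largest ratio of the 8 genes in that step. The lists at e18.5 gave 19.8 and 17.4 RPM, close to each other but from clusters that did not overlap. Against e12.5 the log2 ratio of adult liver was 9.41 (8.53 to 10.47), with the e12.5 value resting on the 10 reads.

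The clusters of Pck1 grew from 8 at e18.5 to 32 at P7 and 30 in adult liver, of which 21 and 18 were in the coding sequence and 7 and 8 in the 3′UTR. Overlapping clusters led at P7 and in adult liver, with 898 and 948 reads in exon 7, or 25.1% and 25.2% of the gene's reads. Both cover the miR-30a-5p site printed above, among listed sites of 23 and 26 miRNAs. At e18.5 that site had 5 reads and the leading cluster, of 83 reads, lay in exon 3 (chr2:173153979-173153989). Another stretch in exon 10, mostly coding and reaching into the 3′UTR (chr2:173158308-173158653), held 6, 570 and 901 reads from e18.5 on.

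Fbp1 encodes fructose-1,6-bisphosphatase, which reverses the phosphofructokinase step. It had 0.223, 3.81, 38.0, 75.3 and 51.3 RPM in order of age. The e12.5 value came from 1 intronic cluster of 10 reads, and 56 of the 63 reads at e15.5 from 1 cluster in the 5′UTR. Coding clusters were listed from e18.5 on, with 4, 14 and 12 in these libraries. From e15.5 to e18.5 the log2 ratio was 3.32 (2.94 to 3.72), and that of adult liver to e12.5 was 7.85 (6.96 to 8.91). The e18.5 level was uneven between the lists, with 46.3 and 6.30 RPM. All 63 reads at e15.5 were in the second list, at 5.21 RPM, so the size of the ratio of e18.5 to e15.5 depended on the list. The adult cluster with most reads had 294 in exon 5 (chr13:62868995-62869037).

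G6pc encodes the catalytic subunit of glucose-6-phosphatase, the last step, which releases free glucose. It was not listed in the earlier 2 libraries and had 101, 161 and 176 RPM in the later 3. Of the genes listed in all 3 later libraries, 2.5% were likewise not listed in both earlier ones. No fold against e12.5 is given, because the tables hold only clusters of at least 5 reads with a seed match. The lists at e18.5 gave 113 and 55.9 RPM. From e18.5 on its 3′UTR held 9, 7 and 12 clusters, and its coding sequence 5, 14 and 11. The leading cluster was in the 3′UTR in all 3 libraries, with 221, 990 and 1909 reads. The adult one (chr11:101377440-101377679) took 43.6% of the gene's reads and covers the miR-122-5p site.

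**Figure D2:**
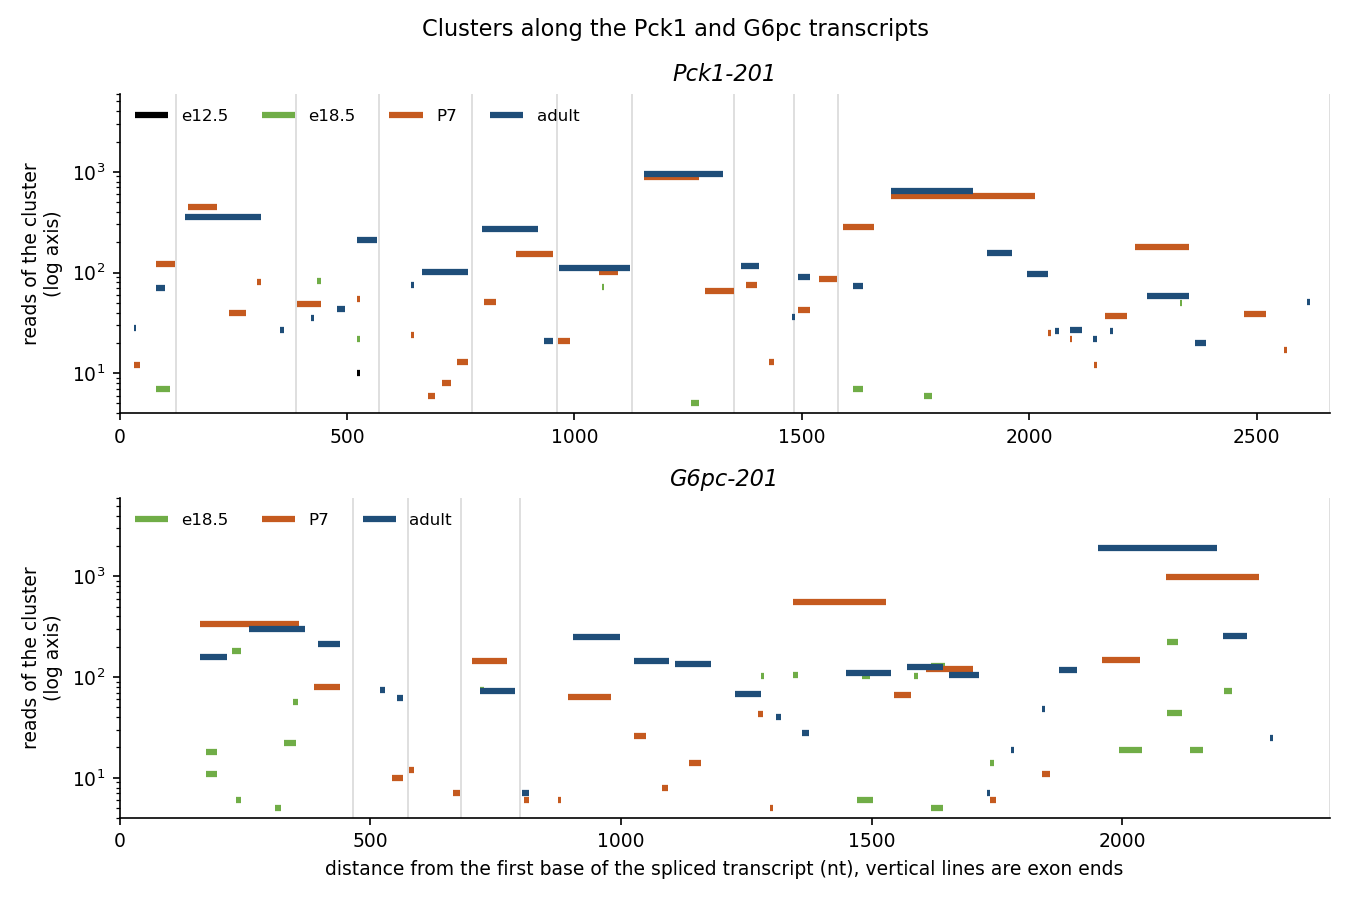
Each bar is a cluster of Pck1 (top) or G6pc (bottom), placed by its distance from the first base of the spliced transcript (nt) and by its reads (log axis), in the colour of its library. The highest bars are in exon 7 of Pck1 (898 reads at P7 and 948 in adult liver) and in the 3′UTR of G6pc (990 and 1909).

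Pklr encodes pyruvate kinase of liver (L-type) and red cells (R-type), which differ in their first exon. Its level was highest at e12.5 and lower in each later library, 61.9, 39.8, 20.1, 14.8 and 10.3 RPM, with no overlap of the intervals. The adult level stood at a log2 ratio of -2.58 (-2.77 to -2.40) to e12.5, and of -1.79 when scaled to mRNA clusters. On the latter scale the level fell to e18.5 and not after it, with 66.8, 72.6 and 76.7 RPM, scaled so, from e18.5 on. The lists differed at each embryonic stage, with 99.2 and 43.5 for e12.5, 85.1 and 23.2 for e15.5, and 23.7 and 6.30 for e18.5, and each list of e12.5 was above the adult level. The summed erythroid markers were highest at e18.5 and lowest in adult liver, and their part in the result was not tested.

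The upstream first exon, of the R-type, held a cluster at e12.5 (chr3:89136176-89136217) with 227 and 55 reads in the 2 lists, and no cluster was listed there in the other 4 libraries. The first exon of the L-type held none in any library. All other exonic clusters lay in exons 2 to 11, which both transcripts share, except 1 in the 3′UTR (chr3:89146617-89146628, 85 reads at e12.5) beyond the end annotated for the R-type. Pklr had 26 clusters at e12.5, 16 of them coding and 7 in the 3′UTR, and 9, 7, 9 and 11 clusters later. A stretch in exon 5 (chr3:89141784-89141861) was the 1 present in all 5 libraries, with 138, 35, 126, 31 and 24 reads. The leading cluster at e12.5, of 361 reads (chr3:89142656-89142685), and that of adult liver, of 47 (chr3:89142665-89142716), overlapped in exon 7.

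Hk2 encodes hexokinase 2, the insulin-responsive hexokinase of muscle and of growing cells. It had 9.38, 9.81, 12.9, 4.97 and 0.241 RPM in order of age. The interval of the e15.5 level overlapped those of the stages on either side of it, and the adult level rested on 1 coding cluster of 6 reads (chr6:82734920-82734925). Its adult log2 ratio to e12.5 was -5.28 (-6.74 to -4.15), and that to P7 was -4.37 (-5.85 to -3.18), a step in which 43.1% of all genes were at least 2-fold lower. Lists were again uneven, with 20.8 and 3.76 for e12.5, and with none and 13.4 for e15.5. Hk2 had more clusters in the 3′UTR than in the coding sequence at e12.5, 8 against 2, at e15.5, 3 against 2, and at P7, 4 against 2, as did G6pc at e18.5 and in the adult library. The leading e12.5 cluster had 102 reads in exon 18 (chr6:82726536-82726548).

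Aldoa encodes aldolase A, the form of muscle, red cells and fetal tissue. Its level was 19.5, 10.6, 57.7, 25.7 and 16.6 RPM in order of age. Its highest level was just before birth, but the list values were 69.6 and 12.2, the latter below P7 and adult liver. The highest stage and the direction from e18.5 to P7 thus depended on the list. The log2 ratio of P7 to e18.5 was -1.17 (-1.34 to -0.99), beside 35.9% of genes at least 2-fold lower. Scaled to mRNA clusters it was -0.61, within 2-fold. Clusters with a fragment also listed for the same miRNA at another locus held 221 of the 751 Aldoa reads at e18.5. At P7 they held 359 of 424, so the origin of these reads, and with it the ratio, is uncertain. Between e12.5 and adulthood the log2 ratio was -0.24 (-0.41 to -0.07), but 0.55 when scaled to mRNA clusters and 0.07 when scaled to the total reads given by the study, so its direction was not settled. At e15.5 all 175 reads came from the second list.

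Of 20 Aldoa stretches, 4 were present in all 5 libraries. The one in the 3′UTR (chr7:126795282-126795338) had 101, 66, 204, 87 and 51 reads, and those in the coding sequence of exons 2, 3 and 6 had 38, 15 and 61 reads at e12.5 and 63, 11 and 50 in adult liver. The leading cluster at e12.5, with 209 reads (chr7:126795382-126795418), and that of adult liver, with 104 (chr7:126795382-126795402), overlapped, and both held the miR-122-5p 8mer.

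Pkm encodes the M-type pyruvate kinases, M1 and M2, which differ in 1 alternative exon, with M2 known from fetal and proliferating cells. It had 9.32, 3.03, 7.46, 6.79 and 1.97 RPM in order of age. The interval of e18.5 overlapped those of e12.5 and P7, and the interval of e15.5 overlapped that of the adult library. The log2 ratio of adult liver to e12.5 was -2.24 (-2.70 to -1.81). In adult liver 24 of the 49 reads were in an intronic cluster (chr9:59675474-59675479), and at e12.5 the leading cluster of 126 reads was intronic as well (chr9:59658331-59658347). At e18.5, 88 of the 97 reads were in 1 cluster in the 5′UTR.

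In Pkm, clusters in the alternative exons were few. The M2-type exon (bases 59675568 to 59675734) held 1 cluster at e12.5 with 62 reads (chr9:59675602-59675625) and 1 at P7 with 13 (chr9:59675656-59675662). The M1-type exon (bases 59675029 to 59675195) held 1 cluster of 9 reads at e18.5 (chr9:59675059-59675072). In the e12.5 and e18.5 libraries each of these clusters came from 1 list of the 2, and no cluster of either exon was listed in adult liver.

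**Figure D3:**
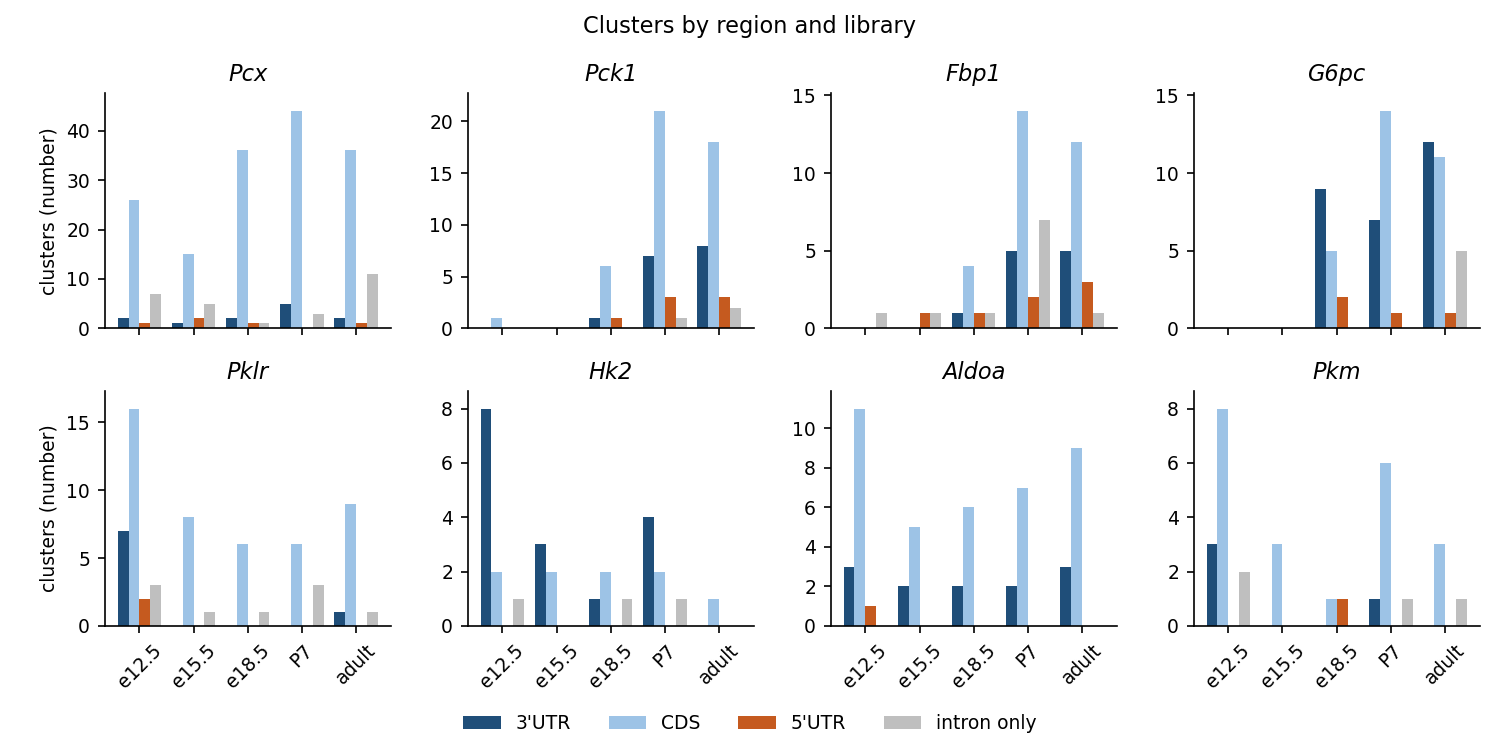
Number of distinct clusters of each gene in the 3′UTR, CDS, 5′UTR and in introns only (bars) in the 5 libraries, with a cluster counted in each region listed for it and a separate vertical scale per gene. CDS bars are the highest for Pcx in every library, with 26, 15, 36, 44 and 36, while Hk2 had 8 clusters in the 3′UTR and 2 in the CDS at e12.5.

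Within an isoenzyme pair both genes are read in the same library, so the share of one needs no scaling. The genes differ in length and in seed matches, so a share is compared between libraries and not read as a ratio of transcripts. Of the reads of Pklr and Pkm, Pklr took 86.9% (85.7 to 88.0), 92.9% (90.8 to 94.6), 72.9% (68.1 to 77.2), 68.6% (63.6 to 73.2) and 84.0% (79.5 to 87.7) in order of age. The share was thus lowest around birth, and the intervals of e12.5 and adult liver overlapped. The lists gave 87.4% and 86.4% for e12.5, 100% and 84.8% for e15.5, and 73.5% and 65.4% for e18.5, where Pkm had 88 reads in the first list, all in 1 cluster in its 5′UTR, and 9 in the second, beside 17 of Pklr. Pkm clusters with 293 of its 726 reads over all libraries, none of them at e18.5, held a fragment of at least 18 bases that was also listed for the same miRNA at another locus, and so did 1 Pklr cluster of 8 reads at P7, so the origin of these reads is uncertain. Without such clusters the Pklr share was 92.8%, 94.0%, 72.9%, 81.7% and 91.5%, again lowest at e18.5 and P7. Such clusters held 1294 of the 2638 Aldoa reads over all libraries, 80 of the 13410 of Pcx and none of Pck1, Fbp1, G6pc and Hk2.

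Of the reads of Pck1 and Pck2, the mitochondrial form, Pck1 took 3.61% (1.97 to 6.52), none, 70.7% (65.8 to 75.2), 98.8% (98.4 to 99.1) and 99.2% (98.9 to 99.4) with age. Pck2 had 5.95 RPM at e12.5 against 1.21 in the adult library. The lists at e18.5 gave 66.2% and 100%. Of the reads of Hk2 and Hk1, the hexokinase of red cells and brain, Hk2 took 11.5% (10.5 to 12.6), 15.6% (13.5 to 17.9), 26.8% (23.4 to 30.3), 32.8% (27.3 to 38.8) and 3.59% (1.66 to 7.62) in order of age. The embryonic lists differed, with 13.9% and 7.86%, 0% and 34.2%, and 29.3% and 7.89%. Hk1 had 72.2 RPM at e12.5 against 6.47 in the adult library. Among other isoenzymes, Aldoc, the aldolase of brain, was listed from e18.5 on, at 11.3, 3.03 and 4.66 RPM. Fbp2, the muscle bisphosphatase, was listed at P7 alone, with 20 reads.

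**Figure D4:**
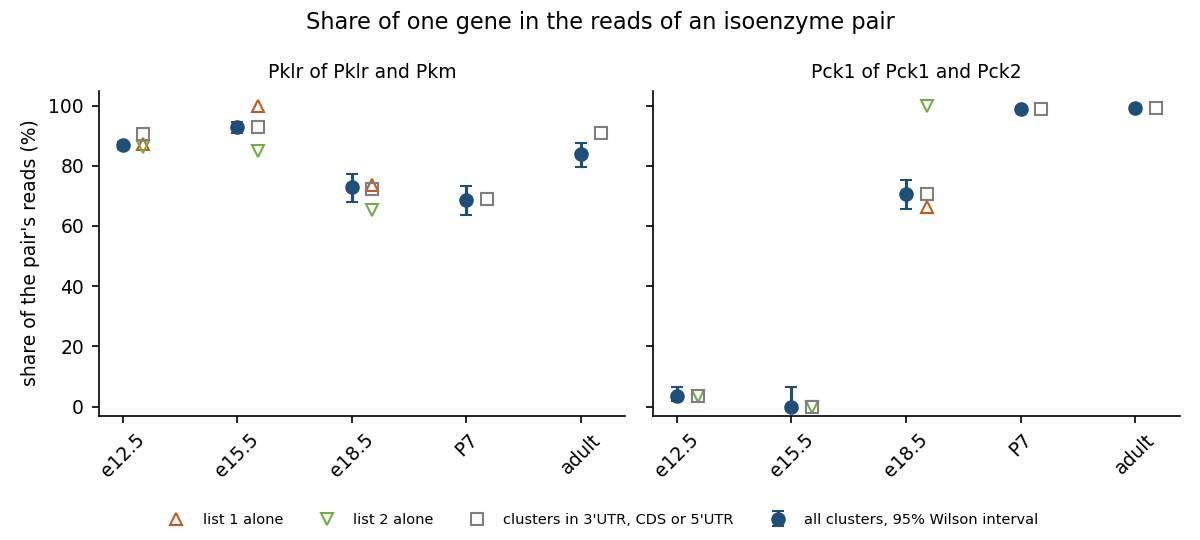
Share of one gene in the reads of an isoenzyme pair (%) by library. Filled points with bars are all clusters with 95% Wilson intervals, triangles are the lists of the embryonic tables, and squares are clusters in the 3′UTR, CDS or 5′UTR only. The Pck1 share went from 3.61% at e12.5 to 99.2% in adult liver, and the Pklr share was lowest at P7, at 68.6%.

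The other 33 genes of the pathway were measured in the same way. Of these, 25 were listed in both the e12.5 and the adult library with at least 20 reads over both. 7 of the 25 were at least 2-fold higher in adult liver and 11 lower, beside 18.7% and 52.1% of all genes, and the median log2 ratio was -0.10. When scaled to mRNA clusters, 11 were higher and 7 lower, beside 28% and 36.7% of all genes. By group, 2 of 6 genes of glucose entry were higher and 2 lower, 2 of 12 of the glycolytic trunk were higher and 5 lower, 1 of 4 bifunctional regulators was higher and 3 lower, and 2 of 3 gluconeogenic partners were higher and 1 lower.

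The highest ratios were those of Slc37a4, the glucose-6-phosphate transporter that feeds glucose-6-phosphatase, with a log2 ratio of 4.20 (13.9 against 0.758 RPM), Gckr with 3.92 (311 against 37 reads), and Slc2a2, the hepatocyte glucose transporter, with 3.25 (36.4 against 3.83). The lowest were those of Bpgm, the 2,3-bisphosphoglycerate mutase of red cells, with -4.88 (2.57 against 75.6), Slc2a1, the glucose transporter of red cells and many other cells, with -4.51 (9.16 against 208), and Pfkl, the liver-type phosphofructokinase, also of red cells, with -4.08 (3.66 against 61.9). Hk1 had -3.48 and Pck2 -2.30. Several of the genes with low ratios are known from red cells, and the summed erythroid markers, with 1 gene of each globin pair, had 34111 RPM at e12.5 against 810 in the adult library. Their part in these ratios was not tested.

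At e12.5 sites of miR-122-5p were listed in Aldoa and Pkm, and at e15.5 in none of the 8 genes. Later they were listed in Pcx, G6pc and Aldoa, and at P7 also in Fbp1. They lay in 2, 0, 3, 5 and 5 clusters. The number taken as the read count of miR-122-5p was 1.44%, 4.33%, 9.20%, 12.3% and 11.2% of all miRNA numbers in order of age. The site in the G6pc 3′UTR, with a listed conservation of 1 on a scale from 0 to 1, had 44 reads at e18.5, all in the second list, 990 at P7 and 1909 in adult liver. At P7 and in adult liver these reads were those of clusters with listed sites of 39 and 46 miRNAs, so they cannot be given to miR-122-5p alone. The G6pc site had the highest read number of the miR-122-5p sites in these 2 libraries.

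The conserved 8mer in the Aldoa 3′UTR (conservation 0.999) had 337, none, 147, 142 and 104 reads in order of age. A miR-16-5p 6mer lay in the same cluster with the same read numbers. In RPM these were 7.51, 11.3, 8.61 and 4.18 in the 4 libraries that listed it. Clusters with a fragment also listed at another locus held 359 of the 424 Aldoa reads at P7. The cluster of this site was among them, so the origin of its reads there is uncertain. The site in exon 12 of Pcx (conservation 0.982) had 13, 90 and 213 reads from e18.5 on, thus following the order of the G6pc site and not that of the Pcx level, which was lower in adult liver than at P7. The 8mer in the Pkm 3′UTR (conservation 0.969) was listed at e12.5 alone, with 8 reads. The remaining sites were in introns of Pcx and Fbp1, with 22 to 41 reads.

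**Figure D5:**
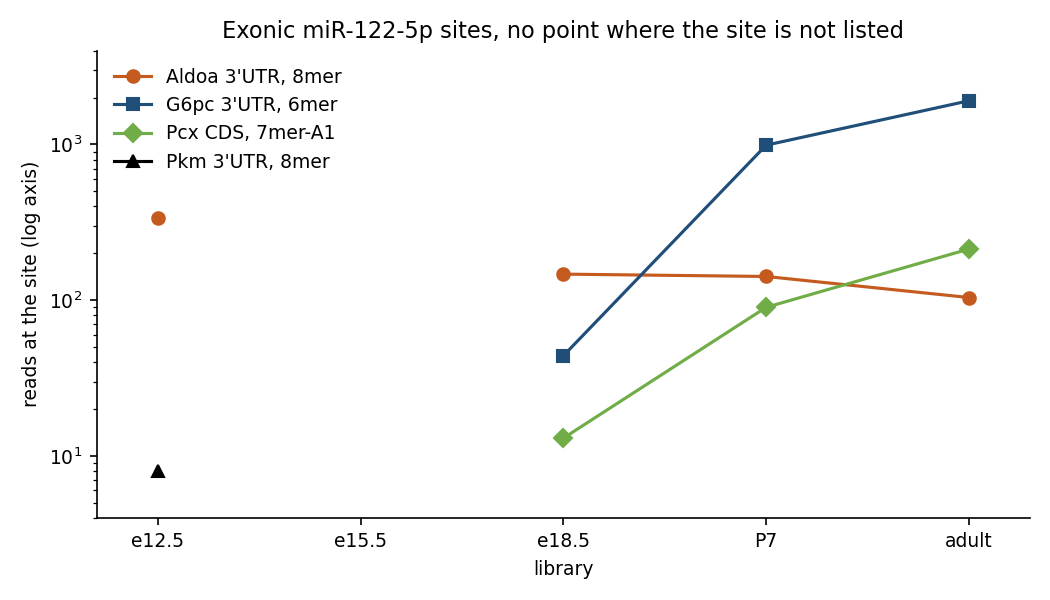
Reads at the exonic miR-122-5p sites (log axis) by library, with no point where a site was not listed. The G6pc site reached 1909 reads in adult liver, the Aldoa site had 337 at e12.5 against 104 in the adult library, and the Pkm site had 8 at e12.5. The G6pc reads at P7 and in adult liver are those of clusters with sites of 39 and 46 miRNAs. At P7 the Aldoa cluster held a fragment also listed at another locus.

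Sites of let-7c-5p in exons were found in Pcx alone. The coding 6mer in exon 11 had 151, 892 and 143 reads from e18.5 on, and its cluster at P7 was the leading one of the gene. The 7mer-m8 of the 3′UTR had 372 reads at e18.5, then 332 at P7, and was not listed in adult liver, while let-7c-5p took 2.49%, 10.9% and 15.6% of miRNA numbers in these libraries. Its listed conservation was 0.004, and that of the coding site 0.876. An intronic site in Hk2 had 22 reads at P7, and intronic sites in Pcx had 12 reads at e15.5 and 5 in adult liver.

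Sites of miR-16-5p were listed in all 8 genes over the 5 libraries, in 6, 5, 7, 11 and 6 clusters. The Pklr coding site in exon 10 had 228 reads at e12.5, 75 at P7 and 46 in adult liver, and the Fbp1 coding site in exon 1 had 118 at P7 and 164 in adult liver. The Hk2 coding site had 53, 64 and 10 reads from e15.5 to P7. The 3′UTR site of Aldoa had 85, 15, 204 and 84 reads from e12.5 to P7, and another in its coding exon 3 had 116, 10, none, 8 and 56 in order of age. Of the G6pc sites, the one in the 3′UTR had 8, 147 and 225 reads from e18.5 on. The Pck1 site was listed at P7 with 87 reads, the Pkm site at e12.5 with 8, and the coding sites of Pcx had at most 159. All share the hexamer GCTGCT, which pairs with bases 2 to 7 of the miRNA.

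Of the remaining miRNAs, miR-142a-3p, known from blood cells, took 32.2% of miRNA numbers at e12.5 against 4.34% in the adult library. It had a coding site in exon 13 of Pcx with 256 reads at e12.5, 9 at e18.5 and 14 in adult liver. Its site in exon 5 of Pck1 had 108 reads at P7 and 241 in adult liver and was not listed before birth. The erythroid miR-144-3p, at 21.7% and 1.54%, and miR-451a, at 6.98% and 0.722%, had intronic sites only, of which the largest were 126 reads in Pkm for miR-144-3p and 156 in Pcx for miR-451a, both at e12.5. miR-194-5p had a coding site in Aldoa, with 61, 16, 95 and 43 reads from e12.5 to P7, and one in Pcx, with 19, 114 and 30 from e18.5 to adult liver.

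Over all 8 genes the clusters merged into 287 stretches, of which 13 were present in all 5 libraries, 8 in Pcx, 4 in Aldoa and 1 in Pklr. Those in all 5 libraries were 4.53% of the stretches of the 8 genes and 1.63% of the 317555 stretches of all genes. Of the 287, 168 were listed in 1 library, 86 before birth alone, 125 after birth alone and 76 both before and after. These were 58.5%, 30.0%, 43.6% and 26.5%, beside 76.9%, 52.8%, 32.3% and 14.9% for all genes. Stretches of 1 gene lie in the same RNA, and the libraries differ in depth, so the shares are a description. Of the Pck1 stretches, 25 of 33 were listed after birth alone and none before birth alone, and G6pc had 21 of 28 and none. In Hk2, Pkm, Pklr and Aldoa the counts before birth alone were the larger, with 15, 15, 23 and 7 against 5, 9, 9 and 4. These genes had 22, 26, 41 and 20 stretches. Over all genes the count before birth alone was the larger as well, with 167588 against 102577.

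Counted in each list, clusters with a coding annotation made up 64.3%, 69.2%, 71.2%, 70.8% and 64.7% of the clusters of the 8 genes, from e12.5 to adult liver, and 40.1%, 47.8%, 49.4%, 51.6% and 57.0% of those of all genes. Clusters annotated to the 3′UTR made up 21.7%, 11.5%, 19.8%, 19.3% and 20.3%, against 27.2%, 30.6%, 29.3%, 29.1% and 23.2%. 8mers were 3.65% to 5.78% of the distinct sites of the 8 genes and 7.65% to 8.79% of all sites. These are descriptions of a few genes, of which Pcx had the most coding clusters in every library. All 8 are coding genes, while the genes listed include noncoding ones, such as Mir196a-2.

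By Euclidean distance between log2 levels (after adding 1 to the RPM) over the 5 libraries, the nearest genes were Sptbn1 (distance 0.704) and Slc40a1 (0.980) to Pcx, Ces1c (1.01) and Gls2 (1.48) to Pck1, Crp (1.05) and Asgr1 (1.27) to Fbp1, and Aox3 (1.02) and Ugt1a5 (1.15) to G6pc. They were Cd82 (0.399) and Abcf1 (0.534) to Pklr, Arf3 (0.300) and Cyfip1 (0.432) to Aldoa, Cops8 (0.365) and Rbak (0.453) to Pkm, and Mir196a-2 (0.390) and Plekhh2 (0.461) to Hk2. The genes nearest to Pck1, Fbp1 and G6pc had at most 0.602 RPM at e12.5 and at least 73.9 in adult liver, which follows from their choice by these same levels. Ces1c, for example, had 0.513 and 241, and Crp 0.602 and 73.9.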

How the data were processed

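The authors used the FASTX-Toolkit to prepare the reads, mapped them with Bowtie to mm10, grouped them into clusters and scanned these for seed matches. The labels also name mm9, and versions are not given in the sources used here. The deposited read number is a signal in whole numbers, the highest over the target in the e12.5 table and over the peak in the others by their column names, and whether these are one measure is not known. The deposited conservation is a fraction from 0 to 1, and the deposited free energy score was not used. A cluster's reads were the highest over its sites, and a site's reads those of its own row. Clusters of the 2 lists of an embryonic table were counted once where they overlapped on one strand. The whole number in each interaction name, which the tables do not explain, was taken as the miRNA's read count. Exon numbers are those of 1 GENCODE vM21 transcript per gene, with another for the isoforms of Pklr and Pkm, and the miRNA sequences are those of RefSeq. miR-142-3p is miR-142a-3p in the tables.

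The members and lists were chosen with earlier results of these data known. Named were all 8 genes, isoenzyme partners, the 3 highest and 3 lowest ratios of the pathway list, leading clusters, stretches in all libraries, sites of 7 miRNAs, and the 2 nearest genes. The miR-30a-5p site was named as that of a leading cluster. The pathway list held Gckr, Hk1, Hk3, Hkdc1, Gpi1, Pfkl, Pfkm, Pfkp, Pfkfb1, Pfkfb2, Pfkfb3, Pfkfb4, Aldoc, Tpi1, Gapdh, Pgk1, Pgam1, Pgam2, Bpgm, Eno1, Eno2, Eno3, Ldha, Ldhb, Pck2, Fbp2, G6pc2, G6pc3, Slc37a4, Slc2a1, Slc2a2 and 2 genes that are not reported here. Scripts ran in Python 3.11.15 with numpy, pandas and scipy, and the ratio and its interval were tested on simulated data.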

Additional observations from a re-analysis of the deposited data

How the results depend on the processing

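The calls of Pck1 and Fbp1 as higher and of Pklr and Pkm as lower in adult liver than at e12.5 held at 4-fold, without the minimum of 20 reads and under both other scalings, except that the mRNA-cluster and total-read scalings raised the number of members higher to 3 by adding Pcx, as did the second e12.5 list alone and sites of at least 7 bases, with log2 ratios of 1.49 and 1.03. The first e12.5 list alone, in which Pck1 and Fbp1 were not listed, left 0 members higher, and clusters in a 3′UTR, CDS or 5′UTR alone left 1. The number of pathway genes higher was 11 on the mRNA-cluster scale and 3 with the first list, and the number lower was 7 on the mRNA-cluster scale and 7 at 4-fold. Requiring 10 reads per cluster removed the 1 adult cluster of Hk2, and so did sites of at least 7 bases. Sites of at least 7 bases gave an adult share of Pklr in the reads of Pklr and Pkm of 89.0%. mRNA regions alone gave Pklr shares of 90.4% at e12.5 against 90.9% in the adult library. Leaving out clusters whose fragment was listed at another locus, chosen after seeing the data, gave 92.8% against 91.5%. The member clusters were 35 and 6 in the first lists of e12.5 and e15.5, and 50 in the second of e18.5. The miR-122-5p clusters at e12.5 were 1 with at least 10 reads and 1 in the first list. The causes were not tested, beyond what fewer clusters must remove. No paired analysis was possible because each stage has 1 sample, and no replicate could be left out. What was not listed may still have had reads, since the tables hold no cluster below 5 reads.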
